A study of Homo sapiens with 8 samples.

Results

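The 10 genes described here are transcriptional outputs of the ERK pathway that also act back on it. ETV4 and ETV5 encode transcription factors of the PEA3 group of the ETS family, SPRY1, SPRY2 and SPRY4 encode Sprouty proteins, SPRED1 and SPRED2 encode Sprouty-related inhibitors of RAS signalling, and DUSP4, DUSP5 and DUSP6 encode dual-specificity phosphatases that act on MAP kinases. All 10 were found by name among the 26830 genes of the deposited expression table. ETV4 and ETV5 had been selected on measured values, namely the size of their decrease after ALKBH5 knockdown in NOMO-1 cells. The other 8 genes were added around them by gene family, with earlier results of these data known. The NOMO-1 knockdown therefore gives values for these genes and no test.

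Poly(A) RNA was sequenced from NOMO-1 and MOLM-13, human acute myeloid leukaemia cell lines, in 4 groups of 2 libraries each. The groups were NOMO-1 cells with a lentiviral short hairpin RNA against ALKBH5 (shALKBH5, replicates 2 and 3), NOMO-1 cells with the control hairpin shNS (replicates 1 and 3), MOLM-13 cells with shALKBH5 (replicates 1 and 3) and MOLM-13 cells with shNS (replicates 1 and 3). Paired values below follow that replicate order. ALKBH5 is an RNA demethylase that removes the methyl mark m6A from adenosines, and the comparison asks which transcripts differ when it is depleted. A single hairpin sequence, labelled #1, was used, so an effect of that hairpin on other transcripts and an effect of ALKBH5 loss cannot be told apart. All groups underwent lentiviral infection and puromycin selection, given as 4 days in the series text and as 1 week in the sample protocols. Those protocols also mention a lentivirus targeting FTO and treatment with drugs, neither of which appears in any sample label. Whether replicate libraries derive from separate cultures is not stated, and p-values therefore cover only the spread of these libraries, which could be technical.

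The ERK pathway carries signals from growth factor receptors through RAS, RAF and MEK kinases to the kinases ERK1 and ERK2, which phosphorylate transcription factors and thereby switch genes on. Some of the genes switched on restrain the pathway: Sprouty and SPRED proteins act near RAS and RAF, and DUSP phosphatases remove phosphate from ERK itself. Transcripts of ETV4, ETV5, SPRY2, SPRY4, DUSP4 and DUSP6 are commonly read as a record of ERK output, and the repressor capicua is known to hold several of them down until ERK relieves it. In acute myeloid leukaemia the pathway is often activated by mutations in RAS genes or in the receptor FLT3. MOLM-13 is known to carry an internal tandem duplication of FLT3.

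Promoter windows of RefSeq (GRCh38.p14), which run from 250 bases before to 50 bases after a transcription start, were given for 6 of the 10 genes (10 windows: SPRY1, SPRY2, SPRY4, SPRED1, SPRED2 and DUSP6). They were searched on both strands for the capicua motif TGAATGA, the ETS core CCGGAA, the AP-1 motif TGANTCA and the cAMP response element TGACGTCA. Of the 10 windows, 1 held the capicua motif, against 4.01% of all 35116 windows. The ETS core was in 2 windows (17.2% of all), the AP-1 motif in 1 (7.71% of all) and the cAMP response element in 0 (1.85% of all). The 3 sequences below are the 250 bases before the start of DUSP6 (chr12:89352502-89352751, minus strand), SPRY2 (chr13:80341127-80341376, minus strand, the first of 3 windows) and SPRY4 (chr5:142324248-142324497, minus strand). They are shown because these genes were lower in the NOMO-1 shALKBH5 than in the NOMO-1 shNS libraries and the windows shown differ in which motif they hold. The test of SPRY2 in MOLM-13, given below, did not pass. The SPRY2 windows not shown held none of the 4 motifs. Capitals mark the capicua motif in DUSP6, whose first base lies at position -133 relative to the start, and the ETS core in SPRY2, whose first base lies at -142; SPRY4 held none of the 4. A match is a run of letters, not a measured binding site.
DUSP6: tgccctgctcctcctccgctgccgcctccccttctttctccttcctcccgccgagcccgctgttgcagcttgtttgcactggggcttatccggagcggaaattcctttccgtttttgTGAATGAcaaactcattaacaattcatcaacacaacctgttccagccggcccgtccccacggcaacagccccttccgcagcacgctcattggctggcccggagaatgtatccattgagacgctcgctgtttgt
SPRY2: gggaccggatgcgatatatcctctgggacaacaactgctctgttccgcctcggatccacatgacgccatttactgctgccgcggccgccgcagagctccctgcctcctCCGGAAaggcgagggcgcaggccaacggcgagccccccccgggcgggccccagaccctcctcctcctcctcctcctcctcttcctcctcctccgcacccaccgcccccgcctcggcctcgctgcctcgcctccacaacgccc
SPRY4: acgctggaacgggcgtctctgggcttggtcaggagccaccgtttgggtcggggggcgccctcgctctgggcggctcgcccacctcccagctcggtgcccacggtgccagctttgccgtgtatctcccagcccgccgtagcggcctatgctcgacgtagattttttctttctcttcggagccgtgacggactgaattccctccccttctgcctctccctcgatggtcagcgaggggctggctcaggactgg

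Values are in TPM, the share of all transcripts that a gene holds after correction for transcript length, so levels of different genes can be compared. Differences are given on the log2(TPM + 1) scale as shALKBH5 minus shNS, which understates changes of low genes. Tests are limma's moderated test in 1 model over all 8 libraries, with Benjamini-Hochberg adjustment over 14302 genes of at least 1 TPM in at least 2 libraries and a threshold of 0.05. ALKBH5 itself was at 15.1 and 14.2 TPM in NOMO-1 shALKBH5 and at 70.4 and 71.8 TPM in NOMO-1 shNS libraries, and at 9.45 and 7.35 TPM in MOLM-13 shALKBH5 and 45.7 and 45.8 TPM in MOLM-13 shNS libraries. Its log2 difference was -2.21 in NOMO-1 (limma adjusted p = 0.00032) and -2.32 in MOLM-13 (limma adjusted p = 0.00019). The MOLM-13 shALKBH5 libraries stood apart from each other: the SD over 8804 genes of the log2 difference between replicates was 0.53 there, against 0.133 to 0.184 in the other groups. Because the model shares 1 estimate of spread, each MOLM-13 result of the 10 genes is also given by library. For other genes of the pathway, many MOLM-13 results are given without library values. The median log2 difference of all genes tested was 0.16 in NOMO-1 and -0.18 in MOLM-13, and median-of-ratios scaling moved these to 0 and 0.03. Of 10 myeloid markers, 8 reached 1 TPM in NOMO-1 and 10 in MOLM-13, and the epithelial marker EPCAM was at 0 in every library. The summed level of the myeloid markers was 3941 to 4094 TPM in NOMO-1 shALKBH5 and 1769 to 1845 TPM in NOMO-1 shNS libraries, and 14632 to 21808 TPM in MOLM-13 shALKBH5 and 10580 to 11038 TPM in MOLM-13 shNS libraries. LYZ and ELANE carried the NOMO-1 sums, with LYZ at 1532 and 1507 TPM in shALKBH5 and 463 and 499.9 TPM in shNS libraries and ELANE at 1822 and 1970 TPM in shALKBH5 and 667 and 705 TPM in shNS libraries. CD33, SPI1, CEBPA and CD14 were lower in both NOMO-1 shALKBH5 libraries than in both shNS libraries, as were PTPRC, ITGAM and MPO in MOLM-13. The part of these markers in the values below was not tested. No more than 2 markers of each of the erythroid, megakaryocyte, lymphoid and epithelial lists reached 1 TPM in any group, and their summed levels were at most 20.0, 12.7, 4.06 and 2.34 TPM. The highest erythroid sum was mostly HBB, at 14.0 TPM in replicate 3 of MOLM-13 shALKBH5 and listed at 0 in every other library.

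ETV4 and ETV5 were both far lower in the shALKBH5 libraries of either line. These factors activate genes through ETS sites, and their own transcription follows ERK activity. ETV5 (chromosome 3, 186046308 to 186110318, minus strand, GRCh38) was at 1.67 and 4.31 TPM in NOMO-1 shALKBH5 libraries, against 85.7 and 82.2 TPM in NOMO-1 shNS libraries. It was the most abundant of the 10 genes in the NOMO-1 shNS libraries. By mean it stood behind DUSP5, SPRED2 and DUSP6 in the NOMO-1 shALKBH5 libraries, where its mean was 3.56% of the shNS mean. In replicate 2 of NOMO-1 shALKBH5 it was also below SPRY2 and DUSP4 (2.46 and 2.33 TPM). The log2 difference of -4.50 was the lowest of all 14302 genes, and that size is what chose the gene. ETV4 (chromosome 17, 43527844 to 43579620, minus strand) was at 0.09 and 0.27 TPM in NOMO-1 shALKBH5 libraries, against 16.5 and 16.3 TPM in NOMO-1 shNS libraries, a log2 difference of -3.89. In bulk RNA, fewer cells that express a gene and less RNA per cell cannot be told apart.

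MOLM-13 was not used to choose ETV4 and ETV5, and both genes fell there. ETV5 was at 5.54 and 2.10 TPM in MOLM-13 shALKBH5 libraries, against 22.3 and 22.9 TPM in MOLM-13 shNS libraries. Its log2 difference was -2.39 (SE 0.42, limma adjusted p = 0.0064), with replicate 1 at 24.5% and replicate 3 at 9.28% of the shNS mean. With MOLM-13 fitted alone the adjusted p of limma's test was 0.054, which misses the threshold. ETV4 was at 0.33 TPM in replicate 1 and listed at 0 in replicate 3 of MOLM-13 shALKBH5, against 6.17 and 6.72 TPM in MOLM-13 shNS libraries. Its log2 difference was -2.69 (SE 0.17, limma adjusted p = 0.00024), and it passed the threshold in all 17 alternative settings that could be computed for it. Only shNS libraries reached 1 TPM, so ETV4 passed the filter on low values through them alone and had to differ in some line. The antisense gene ETV5-AS1 lies within ETV5, and the strand setting used in quantification is not given in the sources used here, so reads of the pair may not be separated.

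**Figure D1:**
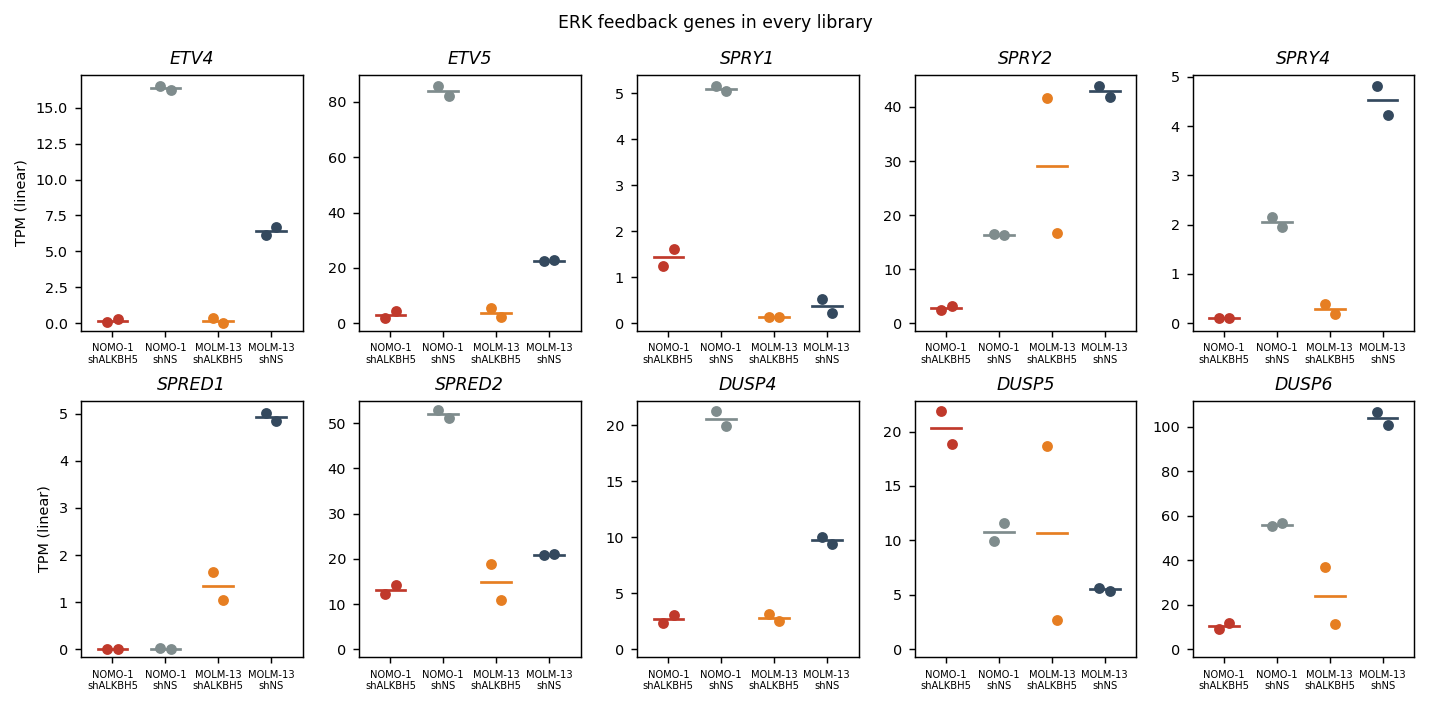
TPM (linear axes, 1 panel a gene) of the 10 ERK feedback genes in each library of the 4 groups; points are libraries and bars are group means (n = 2). ETV4 stays under 1 TPM in every shALKBH5 library, while the MOLM-13 shALKBH5 points of SPRY2, DUSP5 and DUSP6 lie far apart, for example 41.6 and 16.7 TPM for SPRY2.

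Among SPRY1, SPRY2 and SPRY4, SPRY2 was the most abundant in every library. Sprouty proteins bind adaptor proteins of activated receptors and limit the signal that reaches RAS and RAF. SPRY2 (chromosome 13, 80335976 to 80340951, minus strand) was at 2.46 and 3.24 TPM in NOMO-1 shALKBH5 libraries, against 16.5 and 16.2 TPM in NOMO-1 shNS libraries, a log2 difference of -2.18. The MOLM-13 shALKBH5 libraries held 41.6 and 16.7 TPM, against 43.9 and 41.9 TPM in MOLM-13 shNS libraries. Replicate 1 was thus at 97.0% of the shNS mean and replicate 3 at 38.9%. The log2 difference of -0.68 did not pass (SE 0.38, limma adjusted p = 0.20). Without replicate 1 of MOLM-13 shALKBH5 it was -1.31 (limma adjusted p = 0.00042), and without replicate 3 it was -0.04 (limma adjusted p = 0.81), so the call depends on which library is kept.

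SPRY4 was the Sprouty gene that fell past the threshold in MOLM-13. SPRY4 (chromosome 5, 142310427 to 142326455, minus strand) was at 0.38 and 0.18 TPM in MOLM-13 shALKBH5 libraries, against 4.81 and 4.23 TPM in MOLM-13 shNS libraries, a log2 difference of -2.11 (SE 0.13, limma adjusted p = 0.00024). In NOMO-1 it was at 0.11 TPM in each shALKBH5 library, against 2.16 and 1.95 TPM in shNS libraries. All 4 shALKBH5 libraries were below 1 TPM, so SPRY4, like ETV4, passed the filter on low values only through the shNS libraries and had to differ in some line. The antisense gene SPRY4-AS1 overlaps the start of SPRY4, with the same limit on strand as for ETV5.

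SPRY1 reached 1 TPM in NOMO-1 only. SPRY1 (chromosome 4, 123396795 to 123403760, plus strand) was at 1.24 and 1.62 TPM in NOMO-1 shALKBH5 libraries, against 5.16 and 5.05 TPM in NOMO-1 shNS libraries, a log2 difference of -1.33. In MOLM-13 it was below 1 TPM in every library, at 0.14 and 0.13 TPM in shALKBH5 and 0.52 and 0.23 TPM in shNS libraries. The log2 difference there was -0.27 (SE 0.15, limma adjusted p = 0.19), and at this level a change was not detectable.

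SPRED1 reached 1 TPM in MOLM-13 only. SPRED proteins bring neurofibromin, the RAS-inactivating protein encoded by NF1, to the membrane. SPRED1 (chromosome 15, 38252326 to 38357249, plus strand) was at 1.64 and 1.05 TPM in MOLM-13 shALKBH5 libraries, against 5.02 and 4.85 TPM in MOLM-13 shNS libraries. It fell by 1.35 on the log2 scale (SE 0.14, limma adjusted p = 0.0011). In NOMO-1 it was listed at 0 in both shALKBH5 libraries, against 0.03 and 0 TPM in shNS libraries, so it passed the filter only through MOLM-13 and nothing can be said of the knockdown in NOMO-1.

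SPRED2 was abundant in both lines. SPRED2 (chromosome 2, 65310851 to 65432637, minus strand) was at 12.2 and 14.2 TPM in NOMO-1 shALKBH5 libraries, against 52.9 and 51.1 TPM in NOMO-1 shNS libraries, a log2 difference of -1.90. Its level was 18.8 and 10.9 TPM in MOLM-13 shALKBH5 libraries, against 20.9 and 21.0 TPM in MOLM-13 shNS libraries. The log2 difference of -0.52 did not pass (SE 0.23, limma adjusted p = 0.12). Both MOLM-13 shALKBH5 libraries were below both shNS libraries, but without replicate 1 of MOLM-13 shALKBH5 the difference was -0.88 (limma adjusted p = 0.00059) and without replicate 3 it was -0.15 (limma adjusted p = 0.23).

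The phosphatase genes did not share a direction. DUSP6, whose protein is the cytoplasmic phosphatase most selective for ERK, and DUSP4, a nuclear phosphatase of ERK and JNK, were lower in both lines, whereas DUSP5, a nuclear ERK phosphatase, was not. DUSP6 (chromosome 12, 89347232 to 89353271, minus strand), whose promoter window with the capicua motif is shown above, was at 9.34 and 12.0 TPM in NOMO-1 shALKBH5 libraries, against 55.5 and 56.7 TPM in NOMO-1 shNS libraries, a log2 difference of -2.30. MOLM-13 shALKBH5 libraries held 36.8 and 11.5 TPM, against 107 and 101 TPM in MOLM-13 shNS libraries. It fell by 2.27 on the log2 scale (SE 0.47, limma adjusted p = 0.011). The difference was -1.47 without replicate 3 of MOLM-13 shALKBH5 (limma adjusted p = 0.00059) and -3.07 without replicate 1 (limma adjusted p = 4.1e-05). With MOLM-13 fitted alone the adjusted p of limma's test was 0.094, and it was 0.066 without replicate 1 and 0.059 without replicate 3 of MOLM-13 shNS.

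DUSP4 (chromosome 8, 29333064 to 29350668, minus strand) was at 2.33 and 3.05 TPM in NOMO-1 shALKBH5 libraries, against 21.2 and 19.9 TPM in NOMO-1 shNS libraries, a log2 difference of -2.55. In MOLM-13 it was at 3.15 and 2.50 TPM in shALKBH5 libraries, against 10.1 and 9.36 TPM in shNS libraries. It fell by 1.49 on the log2 scale (SE 0.14, limma adjusted p = 0.00084), and both shALKBH5 libraries lay close together, at 32.4% and 25.7% of the shNS mean.

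DUSP5 (chromosome 10, 110497838 to 110511544, plus strand) was the only one of the 10 genes above its controls in NOMO-1. It was at 21.9 and 18.8 TPM in NOMO-1 shALKBH5 libraries, against 9.91 and 11.6 TPM in NOMO-1 shNS libraries, a log2 difference of 0.86. In MOLM-13 it was at 18.7 and 2.71 TPM in shALKBH5 libraries, against 5.67 and 5.33 TPM in shNS libraries. Replicate 1 was above and replicate 3 below both controls, so the groups overlapped and the log2 difference of 0.40 did not pass (SE 0.69, limma adjusted p = 0.69). Without replicate 3 of MOLM-13 shALKBH5 DUSP5 was higher by 1.60 (limma adjusted p = 0.00037), and without replicate 1 the value was -0.81 (limma adjusted p = 0.0031). Other immediate response genes differed between the same 2 libraries. DUSP1, a phosphatase induced by stress and growth factors, was at 53.5 TPM in replicate 1 and 2.48 TPM in replicate 3, against 29.6 and 23.8 TPM in MOLM-13 shNS libraries. IL1B, an inflammatory cytokine gene, was at 88.6 and 1.01 TPM, against 19.1 and 16.7 TPM in MOLM-13 shNS libraries; these 2 genes were chosen after their values were seen.

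**Figure D2:**
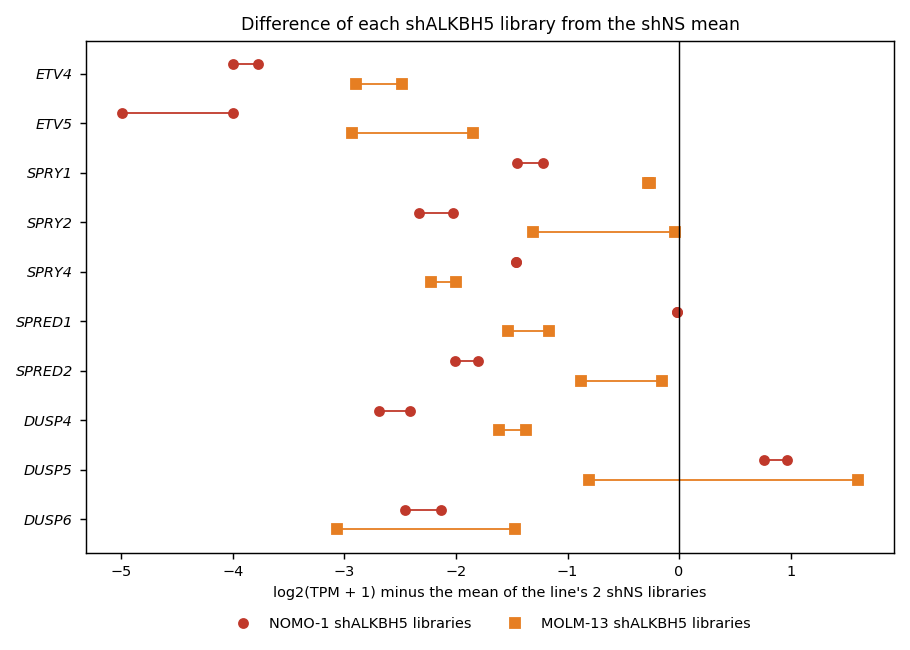
Difference of each shALKBH5 library from the mean of its line's 2 shNS libraries, on the log2(TPM + 1) scale, for the 10 genes; circles are NOMO-1 and squares MOLM-13 libraries, and a line joins the 2 libraries of a line. In NOMO-1, ETV5 lies at -4.99 and -4.00 and DUSP5 at 0.97 and 0.76, while in MOLM-13 the libraries of DUSP5 lie on both sides of 0 (1.60 and -0.81).

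Counted over the 10 genes, 6 fell in MOLM-13 past the threshold (ETV4, ETV5, SPRY4, SPRED1, DUSP4 and DUSP6), where 31.2% of all genes tested were lower past the threshold. Of the 10, 0 rose, where 10.6% of all genes were higher past the threshold; at an unadjusted limma p under 0.05 the count of higher genes was also 0. Without ETV4 and SPRY4, which passed the filter only through the shNS libraries, 4 of 8 fell. By library, 9 genes were lower in both MOLM-13 shALKBH5 libraries than in both shNS libraries, against 46.2% of all genes, and DUSP5 overlapped. The 9 include ETV4 and SPRY4, with the same limit from the filter, and SPRY1, which was below 1 TPM in every MOLM-13 library. They also include SPRY2, whose replicate 1 of shALKBH5 (41.6 TPM) was barely below replicate 3 of shNS (41.9 TPM). The median log2 difference of the 10 genes, with ETV4 and SPRY4 among them, was -1.42, against -0.18 for all genes. In NOMO-1, the contrast that chose ETV4 and ETV5, 8 were lower in both shALKBH5 libraries, DUSP5 was higher and SPRED1 overlapped, where 30.5% of all genes were lower in both libraries. The median there was -2.04, against 0.16 for all genes. These 2 figures describe the chosen genes and carry no test.

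**Figure D3:**
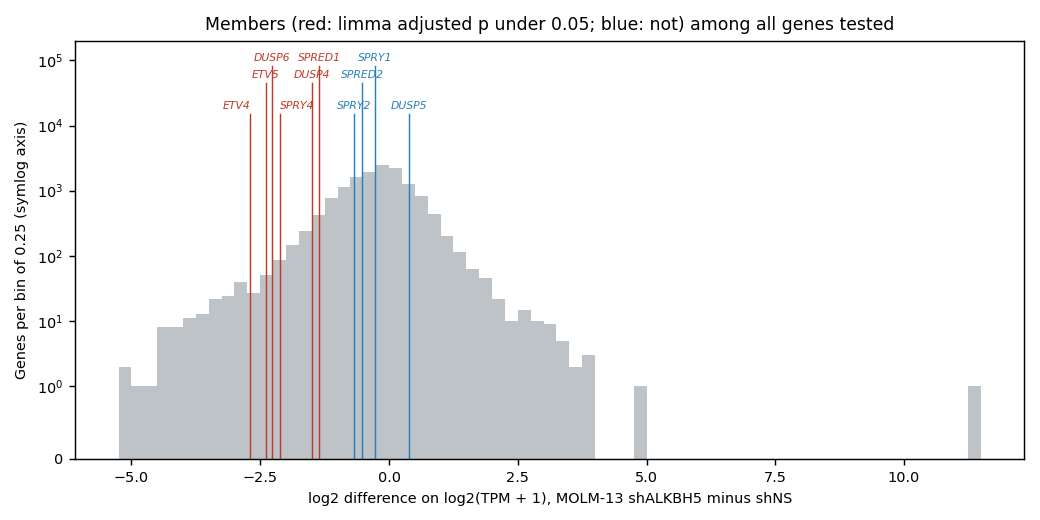
Number of genes (symlog axis) by log2 difference in MOLM-13, shALKBH5 minus shNS on the log2(TPM + 1) scale, for all 14302 genes tested, with the 10 genes as vertical lines (red: limma adjusted p under 0.05; blue: not). The 6 red lines lie between -2.69 for ETV4 and -1.35 for SPRED1, in the left tail, and the 4 blue ones between -0.68 and 0.40.

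Since TPM is corrected for length, the members of a family can be added and their shares read. ETV4 and ETV5 together made up 1.76 and 4.58 TPM in NOMO-1 shALKBH5 libraries, against 102 and 98.5 TPM in NOMO-1 shNS libraries, and 5.87 and 2.10 TPM in MOLM-13 shALKBH5 libraries, against 28.5 and 29.6 TPM in MOLM-13 shNS libraries. ETV5 held 94.1% to 94.9% of the pair in NOMO-1 shALKBH5 and 83.5% to 83.9% in NOMO-1 shNS libraries. The leading DUSP transcript was not the same in the 2 NOMO-1 groups. DUSP5 held 65.2% and 55.5% of the summed DUSP4, DUSP5 and DUSP6 level in NOMO-1 shALKBH5 libraries, against 11.4% and 13.1% in NOMO-1 shNS libraries, where DUSP6 held 64.1% and 64.3%. In MOLM-13 DUSP6 led in every library, with 62.8% and 68.9% in shALKBH5 and 87.2% and 87.3% in shNS libraries. Of the summed SPRY1, SPRY2 and SPRY4 level, which leaves out SPRY3, SPRY2 held 64.6% and 65.2% in NOMO-1 shALKBH5, 69.2% and 69.9% in NOMO-1 shNS, 98.8% and 98.2% in MOLM-13 shALKBH5 and 89.2% and 90.4% in MOLM-13 shNS libraries. Summed over all 10 genes, the level was 51.3 and 57.7 TPM in NOMO-1 shALKBH5 libraries, against 266 and 261 TPM in NOMO-1 shNS libraries, and 127 and 47.8 TPM in MOLM-13 shALKBH5 libraries, against 226 and 218 TPM in MOLM-13 shNS libraries.

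**Figure D4:**
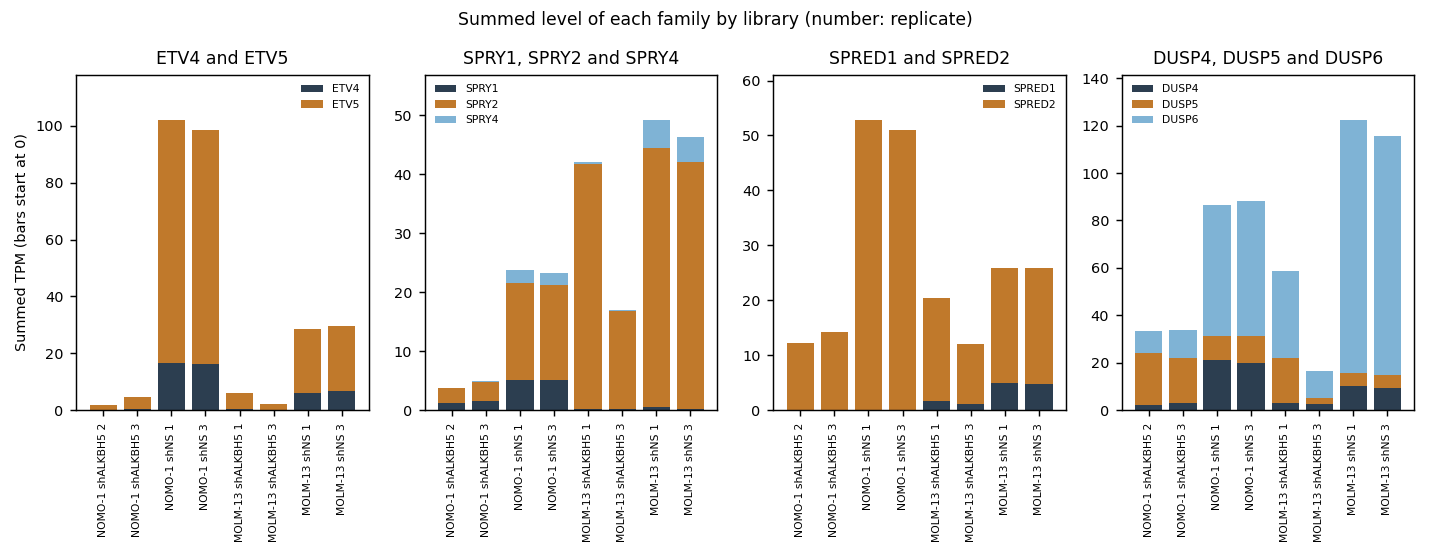
Summed TPM of each family in each library (bars start at 0; colours are the member genes; the number after a group is the replicate). The orange DUSP5 share is the largest of its family in the NOMO-1 shALKBH5 libraries (65.2% and 55.5%), and the ETV sum is at 1.76 and 4.58 TPM there, against 102 and 98.5 TPM in NOMO-1 shNS libraries.

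The shNS libraries give the levels of these genes in each line without ALKBH5 depletion. In NOMO-1 shNS libraries the order was ETV5, DUSP6 and SPRED2, at means of 83.9, 56.1 and 52.0 TPM, then DUSP4, ETV4, SPRY2, DUSP5, SPRY1, SPRY4 and SPRED1. The ranges of ETV4 and SPRY2 overlapped, and those of all other neighbours did not. In MOLM-13 shNS libraries the order was DUSP6, SPRY2 and ETV5, at means of 104, 42.9 and 22.6 TPM, then SPRED2, DUSP4, ETV4, DUSP5, SPRED1, SPRY4 and SPRY1, with no overlap between neighbours. Between these libraries, NOMO-1 minus MOLM-13, 3 of the 8 genes tested were higher in NOMO-1, where 40.6% of all genes were higher past the threshold, and 3 were lower, where 19.2% of all genes were lower. Higher in NOMO-1 were SPRY1 (log2 difference 2.16, limma adjusted p = 4.5e-05), SPRED2 (1.27, limma adjusted p = 0.0036) and DUSP4 (1.01, limma adjusted p = 0.0012). Lower in NOMO-1 were SPRED1 (-2.55, limma adjusted p = 2.2e-05), SPRY4 (-0.85, limma adjusted p = 0.0015) and SPRY2 (-1.34, limma adjusted p = 0.021). SPRY2 lost its call when any of the 4 shNS libraries was left out (limma adjusted p = 0.080 to 0.092). SPRY1 and SPRED1 passed the filter through 1 line only, and without them 2 of 6 genes were higher and 2 lower. DUSP6 (-0.88, limma adjusted p = 0.15) and DUSP5 (0.85, limma adjusted p = 0.33) did not pass, although their shNS libraries did not overlap between the lines; both passed when replicate 1 or replicate 3 of MOLM-13 shALKBH5 was left out (limma adjusted p = 0.00086 and 0.00085 for DUSP6, 0.00080 and 0.00074 for DUSP5), and DUSP6 also with median-of-ratios scaling (limma adjusted p = 0.030). With the shNS libraries fitted alone, a fit chosen after seeing the data, 4 of the 8 genes were higher and 4 lower past the threshold. Quantile scaling gave 3 higher and 4 lower. ETV4 and ETV5, whose NOMO-1 control values entered their choice, were at differences of 1.22 and 1.85. The median difference of the 10 genes was 0.93, against 0.29 for all genes. It includes ETV4 and ETV5, whose choice used the NOMO-1 control values, so no difference between the lines is read from it.

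Genes whose level followed ETV5 most closely were sought over the 8 libraries among the 10463 genes whose mean reached 5 TPM. The highest Pearson correlations on the log2(TPM + 1) scale were those of TTF2 (0.999), EBPL (0.996), ST6GAL1 (0.994), CENPV (0.993) and DUSP4 (0.993). With 8 libraries that fall into 4 groups such values are common: 261 genes exceeded 0.9. DUSP4 is thus both a member of the list and among the 5 genes most like ETV5, and ETV4 followed at 0.985, SPRED2 at 0.957, DUSP6 at 0.791, SPRY2 at 0.436 and DUSP5 at -0.145. For DUSP6 the 5 genes most alike were ZNF146 (0.997), HDDC2, OAZ1, ARHGDIB and MARS (the lowest at 0.991), and 279 genes exceeded 0.9. For SPRED1, which follows the line as much as the knockdown, the genes most alike included SEPT11 (0.999), VAT1L, MPO and WT1 (the lowest at 0.996). MPO, the myeloperoxidase gene, was at 0.31 and 0.48 TPM in NOMO-1 shALKBH5 and 0.25 and 0.07 TPM in NOMO-1 shNS libraries, and at 19.3 and 16.4 TPM in MOLM-13 shALKBH5 and 384 and 457 TPM in MOLM-13 shNS libraries.

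Other genes of the pathway were counted in 6 lists, of which 81 of 91 genes were tested. In NOMO-1, 22 of the 81 were higher and 13 lower past the threshold (27.2% and 16.0%), where 28.6% of all genes were higher and 15.0% lower. In MOLM-13, 3 were higher and 28 lower (3.70% and 34.6%), beside the 10.6% and 31.2% of all genes given above. With MOLM-13 fitted alone, without the spread of the NOMO-1 libraries, 0 were higher and 6 lower. The shares lower were close to those of all genes in both lines, as was the share higher in NOMO-1, and no result about the lists is read from them.

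Among 15 other genes that ERK activity is known to induce, 4 fell in NOMO-1 and 5 in MOLM-13, and 0 rose in either. Of all genes, 15.0% fell and 28.6% rose past the threshold in NOMO-1, and 31.2% fell and 10.6% rose in MOLM-13. The median log2 difference of the 15 genes was -0.04 in NOMO-1 and -0.49 in MOLM-13, against 0.16 and -0.18 for all genes. EGR1, an immediate-early transcription factor, was at 5.10 and 9.61 TPM in NOMO-1 shALKBH5 libraries, against 102 and 104 TPM in NOMO-1 shNS libraries (log2 difference -3.69, limma adjusted p = 0.0035). In MOLM-13 it was at 14.5 and 3.29 TPM in shALKBH5 libraries, against 152 and 141 TPM in shNS libraries (log2 difference -4.17, limma adjusted p = 0.0027). MYC fell by 2.45 on the log2 scale in NOMO-1 (limma adjusted p = 0.00053) and less in MOLM-13 (log2 difference -0.71, limma adjusted p = 0.034). ELK3, an ETS factor that ERK phosphorylates, fell by 1.28 in NOMO-1 (limma adjusted p = 0.0063). In MOLM-13, HMGA2, a chromatin protein gene, fell by 1.41 (limma adjusted p = 0.0007). TNFRSF12A, a receptor gene of the TNF family, fell by 1.41 there (limma adjusted p = 0.0018). It also fell in NOMO-1 (log2 difference -0.84, limma adjusted p = 0.0098). HMGA2 was at 0.11 and 0.32 TPM in MOLM-13 shALKBH5 libraries, against 2.32 and 2.12 TPM in MOLM-13 shNS libraries, the only ones with 1 TPM or more; it passed the filter through them alone and had to differ. FOS, the classical immediate-early gene, passed in neither line: it was at 73.7 and 75.9 TPM in NOMO-1 shALKBH5, 82.9 and 71.8 TPM in NOMO-1 shNS, 173 and 38.8 TPM in MOLM-13 shALKBH5 and 144 and 137 TPM in MOLM-13 shNS libraries. FOS was chosen after its values were seen.

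Of 18 genes of the core cascade between receptor adaptors and ERK, 3 rose and 1 fell in NOMO-1 (all genes: 28.6% and 15.0%). The MOLM-13 counts were 1 higher and 6 lower (all genes: 10.6% and 31.2%). PTPN11, which encodes the phosphatase SHP2 that couples receptors to RAS, fell in both lines. It was at 29.1 and 39.1 TPM in NOMO-1 shALKBH5 libraries, against 121 and 120 TPM in NOMO-1 shNS libraries (log2 difference -1.80, limma adjusted p = 0.00069). In MOLM-13 it was at 47.8 and 38.3 TPM in shALKBH5 libraries, against 133 TPM in each shNS library (log2 difference -1.62, limma adjusted p = 0.001), and it passed in all 17 alternative settings in each line. BRAF, a RAF kinase gene, rose by 1.02 in NOMO-1 (limma adjusted p = 0.00072) and SHC1, an adaptor gene, by 0.62 (limma adjusted p = 0.021). RRAS2, a RAS-related GTPase gene, fell by 1.43 in MOLM-13 (limma adjusted p = 0.001), and SOS1, which loads RAS with GTP, by 1.25 (limma adjusted p = 0.0033).

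Of 12 other genes that restrain RAS, 6 rose and 2 fell in NOMO-1 (all genes: 28.6% and 15.0%). The MOLM-13 counts were 2 higher and 5 lower (all genes: 10.6% and 31.2%). SPRY3 and SPRED3, the family members outside the 10 genes, rose in NOMO-1 and kept that direction in all 16 alternative settings that gave a value. SPRY3 was at 3.18 and 2.90 TPM in NOMO-1 shALKBH5 libraries, against 0.86 and 0.63 TPM in NOMO-1 shNS libraries (log2 difference 1.21, limma adjusted p = 0.00079). SPRED3 was at 4.20 and 4.06 TPM in NOMO-1 shALKBH5 libraries, against 1.83 and 1.66 TPM in NOMO-1 shNS libraries (log2 difference 0.90, limma adjusted p = 0.0049). SPRED3 rose in MOLM-13 too, at low levels (log2 difference 0.58, limma adjusted p = 0.026). It was at 1.03 and 0.56 TPM in MOLM-13 shALKBH5 libraries, against 0.26 and 0.13 TPM in MOLM-13 shNS libraries. SPRY3 did not pass in MOLM-13 (log2 difference 0.14, limma adjusted p = 0.39). In NOMO-1 shALKBH5 libraries SPRY3 was thus near the level of SPRY2 (2.46 and 3.24 TPM). SPRY3 reached 1 TPM in shALKBH5 libraries only, so it passed the filter on low values through the libraries in which it was high and had to differ in some line. CBLB, a ubiquitin ligase of activated receptors, rose by 1.68 in NOMO-1 (limma adjusted p = 0.00099), while in MOLM-13 it fell by 1.16 (limma adjusted p = 0.0038). RASA1 and RASA2, which switch RAS off, fell by 1.02 and 1.44 in MOLM-13 (limma adjusted p = 0.0045 and 0.0035). RASA2 also fell in NOMO-1 (log2 difference -0.72, limma adjusted p = 0.037), whereas RASA1 did not pass there (-0.26, limma adjusted p = 0.25).

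Of 9 other MAP kinase phosphatases, 3 rose in NOMO-1, where 28.6% of all genes rose. In MOLM-13, 1 fell, where 31.2% of all genes fell. DUSP3 was at 102 and 97.9 TPM in NOMO-1 shALKBH5 libraries, against 52.4 and 49.5 TPM in NOMO-1 shNS libraries (log2 difference 0.96, limma adjusted p = 0.0008). DUSP14 rose by 0.52 in NOMO-1 (limma adjusted p = 0.0076) and fell by 0.61 in MOLM-13 (limma adjusted p = 0.0046). DUSP8 rose by 1.48 in NOMO-1 (limma adjusted p = 0.025), where its mean was 2.07 TPM in shALKBH5 and 0.09 TPM in shNS libraries, and it passed in 11 of 16 alternative settings. DUSP8, too, reached 1 TPM in shALKBH5 libraries only and passed the filter through them.

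Of 16 ETS factors and repressors of the same genes, 5 rose and 6 fell in NOMO-1 (all genes: 28.6% and 15.0%). The MOLM-13 counts were 0 higher and 5 lower (all genes: 10.6% and 31.2%). Capicua itself, encoded by CIC, was at 29.1 and 28.3 TPM in NOMO-1 shALKBH5 libraries, against 20.5 and 20.7 TPM in NOMO-1 shNS libraries (log2 difference 0.46, limma adjusted p = 0.034), and at 17.8 and 13.6 TPM in MOLM-13 shALKBH5 libraries, against 17.0 and 17.5 TPM in MOLM-13 shNS libraries (log2 difference -0.14, limma adjusted p = 0.44). The NOMO-1 call was lost in some settings: CIC passed in 11 of 17, with limma adjusted p of 0.00043 to 0.15. CIC was chosen after its values were seen. ATXN1, whose product binds capicua, rose by 0.95 in NOMO-1 (limma adjusted p = 0.001). ETV1, the remaining PEA3 gene, did not reach 1 TPM in any library. GABPA, a widely expressed ETS activator, fell by 1.04 in NOMO-1 (limma adjusted p = 0.01) and by 1.46 in MOLM-13 (limma adjusted p = 0.0033). TRIB2, a pseudokinase gene, fell by 0.88 in NOMO-1 (limma adjusted p = 0.0024) and was listed at 0 in MOLM-13. ERF, a repressor that ERK removes from the nucleus, and FLI1 fell by 0.83 and 0.71 in MOLM-13 (limma adjusted p = 0.0015 and 0.0065). Both also fell in NOMO-1 (log2 differences -0.45 and -0.39, limma adjusted p = 0.011 and 0.047).

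Of 11 growth factor receptor genes, 5 rose in NOMO-1, where 28.6% of all genes rose. In MOLM-13, 6 fell, where 31.2% of all genes fell. FLT3 was at 98.3 and 39.1 TPM in MOLM-13 shALKBH5 libraries, against 238 and 229 TPM in MOLM-13 shNS libraries (log2 difference -1.89, limma adjusted p = 0.011), and was below 1 TPM in NOMO-1. KIT and IGF1R also fell in MOLM-13, by 0.76 and 0.62 (limma adjusted p = 0.011 and 0.015). KIT reached 1 TPM only in the MOLM-13 shNS libraries and, like HMGA2, passed the filter through them alone. In NOMO-1 CSF3R rose by 0.76 (limma adjusted p = 0.0014), CSF2RB by 0.66 (limma adjusted p = 0.013) and CSF1R by 1.02 (limma adjusted p = 0.031). These are receptors of granulocyte and macrophage growth factors, and CSF1R is also 1 of the 10 myeloid markers, which did not share a direction in NOMO-1. The calls of MYC and SPRED3 in MOLM-13, and of TNFRSF12A, RASA2, ERF and FLI1 in NOMO-1, were not counted over the alternative settings. Beside CIC, the other calls named here that were lost in more than 1 alternative setting were these. SHC1 passed in 13 of 17 settings, and DUSP14 in 14 of 17 in NOMO-1 and 15 of 17 in MOLM-13. GABPA in NOMO-1 passed in 14 of 17, CSF2RB in 13 of 17 and CSF1R in 10 of 17. FLT3 and IGF1R passed in 14 of 17 each, KIT in 14 of 16, and DUSP8 as given above.

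**Figure D5:**
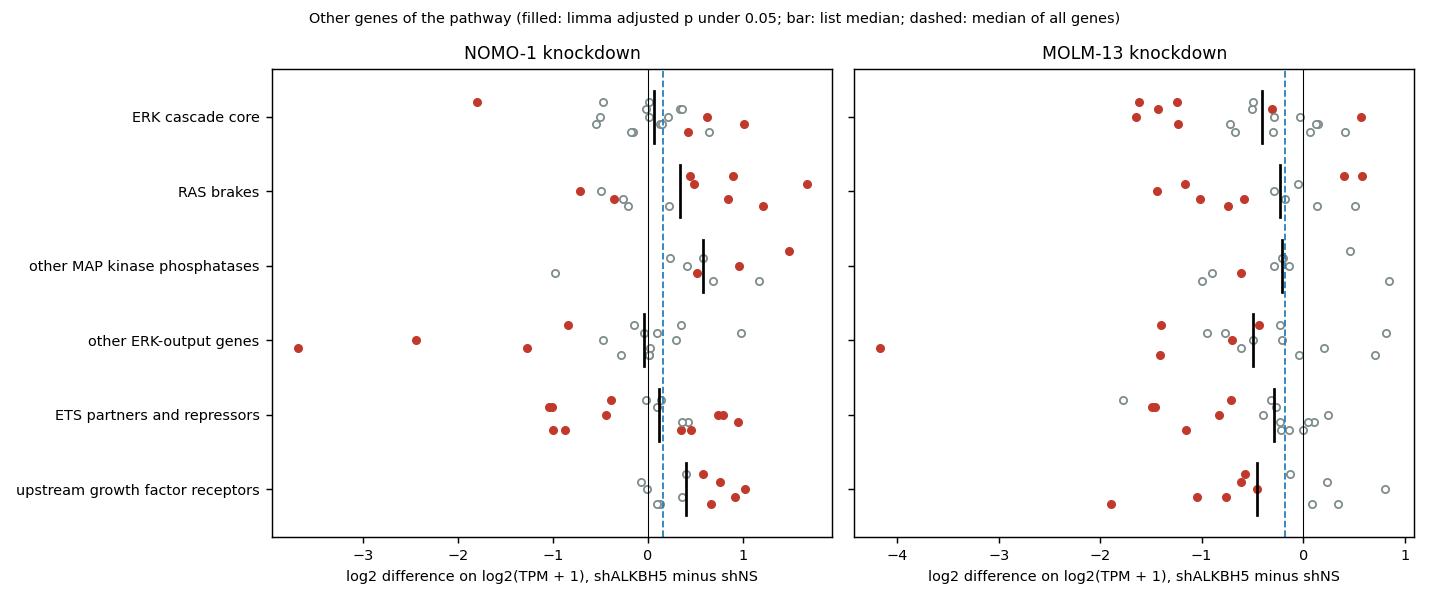
Log2 difference on log2(TPM + 1), shALKBH5 minus shNS, of the tested genes of 6 pathway lists in each line; filled points passed limma's adjusted threshold of 0.05, black bars are list medians and the dashed line is the median of all genes (0.16 in NOMO-1, -0.18 in MOLM-13). The far left points are EGR1, at -3.69 in NOMO-1 and -4.17 in MOLM-13.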

How the data were processed

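Poly(A) RNA-seq of 8 libraries was analysed from 1 deposited table of TPM for 26830 gene symbols. Per the submitters' processing notes, the authors used STAR, RSEM and GRCh38. Tool versions, the annotation and the strand setting were not given in the sources used here. That the deposited values are TPM was judged from the column sums, all 1000000 within rounding. Depth cannot be read from TPM and is unknown, so counting intervals are not given. TPM is a share, so abundant transcripts that rise lower all others. Groups came from the sample labels, and each of the 8 columns was matched to a sample by its name.

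From these values, differences were tested with limma (3.58.1, R 4.3.3) on log2(TPM + 1) for genes of at least 1 TPM in at least 2 libraries (14302 genes), with a mean for each of 4 groups, an intensity trend, 4 residual and 2.29 prior degrees of freedom, two-sided tests and Benjamini-Hochberg adjustment over all genes tested (threshold 0.05). A count test had been planned in case of a count table, and TPM does not allow it. The script was tested on simulated data. The members, pathway lists and marker lists were chosen with earlier results of these data known. Genes named are the 10 members, ALKBH5, per pathway list and line the 3 genes of smallest p past the threshold, the 5 genes most correlated with ETV5, DUSP6 and SPRED1, and others said to be chosen afterwards; 1 gene that this rule names is not reported here. 18 alternative settings were run. Coordinates are from GENCODE release 29 (GRCh38) and promoter windows from RefSeq (GRCh38.p14).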

Additional observations from a re-analysis of the deposited data

Results flagged for a closer look

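5 genes of the pathway lists were higher than their controls in both NOMO-1 shALKBH5 libraries and lower than their controls in both MOLM-13 shALKBH5 libraries; the difference between the lines was not tested. For CBLB the log2 difference was 1.68 in NOMO-1 and -1.16 in MOLM-13. For DUSP14 it was 0.52 in NOMO-1 and -0.61 in MOLM-13. For DUSP3 it was 0.96 in NOMO-1 and -0.28 in MOLM-13, where median-of-ratios and quantile scaling turned the sign (0.01 and 0.06). For KIT it was 0.36 in NOMO-1 and -0.76 in MOLM-13, and for RRAS2 0.34 in NOMO-1 and -1.43 in MOLM-13, with both genes below 1 TPM in every NOMO-1 library. Apart from DUSP3, these genes kept both directions in every alternative setting that gave a value.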

How the results depend on the processing

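In MOLM-13 the 6 members called lower ranged from 4 to 9 over the alternatives, and no member was called higher except DUSP5 without replicate 3 of MOLM-13 shALKBH5 (range over left-out libraries 0 to 1). The value of DUSP5 there ranged from -0.8085 to 1.60 over the left-out libraries, and turned to -0.8085 without replicate 1 of MOLM-13 shALKBH5. Between the shNS libraries, a filter of at least 5 TPM left 1 member lower in NOMO-1 in place of 3, because it tests fewer genes. Of the pathway list genes, 22 were higher in NOMO-1: 35 with each line fitted alone, and 7 to 39 over left-out libraries. 13 were lower: 24 with median-of-ratios scaling, 23 with quantile scaling, 23 with each line fitted alone and 5 to 25 over left-out libraries. In MOLM-13, 3 list genes were higher: 15 with median-of-ratios scaling, 16 with quantile scaling, 0 with each line fitted alone, 5 with the replicate block and 0 to 24 over left-out libraries. 28 were lower: 6 with each line fitted alone and 15 to 61 over left-out libraries. Over all genes, 6242 passed in NOMO-1 (3490 to 9745 over left-out libraries) and 5972 in MOLM-13 (1684 fitted alone, 2665 to 9439 over left-out libraries). Where a left-out library leaves a group with 1 sample, that sample is assumed to vary like the other groups; the cause of these moves was not tested. Replicate numbers give no pairing: the MOLM-13 groups share numbers 1 and 3, whose differences correlated at 0.131 over 8804 genes, and the NOMO-1 groups share only number 3. With the replicate block 6 members were lower in MOLM-13 and 0 higher. The fit of the shNS libraries alone was chosen after seeing the data. It called 4 members higher and 4 lower in NOMO-1, in place of 3 and 3. Depth is unknown, and levels under 1 TPM (ETV4 and SPRY4 after knockdown, SPRY1 in MOLM-13, SPRED1 in NOMO-1) limit what can be seen.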
